A study of Homo sapiens with 12 samples.

Results

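The 37 genes of human mitochondrial DNA, 13 mRNAs, 22 tRNAs and 2 rRNAs, were followed across a sorafenib experiment in HepG2, an established human line from a liver tumour that grows as epithelial-like cells. They were taken as every row whose symbol starts with MT-, which gave 37 of the 57353 rows of the count table. Wild-type HepG2 cultures received 10 µM sorafenib, a kinase inhibitor used against liver cancer, or its solvent DMSO (the vehicle) for 12 h. All cultures then received cycloheximide, which stalls cytosolic but not mitochondrial ribosomes, were lysed with a mild detergent, and the cleared lysates were spun through sucrose gradients. The light fraction pooled the low-molecular complexes, free ribosomal subunits and single ribosomes, and the polysome fraction pooled the peaks with several ribosomes per RNA. Each of the 4 groups had 3 libraries, made from 6 cultures with 1 library per fraction, so vehicle light, vehicle polysome, sorafenib light and sorafenib polysome are the groups compared. The comparisons asked how sorafenib changed the members in each fraction, whether that effect differed between the fractions, and how the fractions differed within a treatment.

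Mitochondrial DNA is transcribed on both strands into long precursors, and the tRNAs that lie between the other genes are cut out to release the mRNAs and rRNAs. The 13 mRNAs encode core subunits of complexes I, III, IV and V of oxidative phosphorylation, the 2 rRNAs form the cores of the mitochondrial ribosome, and the 22 tRNAs serve translation inside the organelle. Mitochondrial ribosomes, not cytosolic polysomes, translate these mRNAs. MT-ND6 and 8 of the tRNAs lie on the strand opposite to the other 28 genes. Strand, order and role are given here as textbook background. All 37 lie on the mitochondrial chromosome; their coordinates and sequences are not used here.

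Total counts per library ranged from 4769383 to 13336689, except for 2 of the sorafenib light libraries, which had 2060384 (library 1) and 511065 (library 2). Log2 values of sorafenib light replicates correlated at 0.798 to 0.934, against 0.952 to 0.989 within the other groups. Light-fraction values are therefore also given without both shallow libraries. Every pair of replicates differed by more than sampling noise, with a chi-square of at least 10 for each degree of freedom. All 37 members were among the 14955 rows with enough counts to be tested. The fit took the mean log2 level of most genes as its zero: the median of all tested rows was -0.02 or -0.03 for sorafenib against vehicle in either fraction, -0.05 for polysome against light with vehicle, 0.13 with sorafenib and 0.15 for the interaction. With library totals as the only scale these medians were 0.29 (light), -0.11 (polysome), 0.82, 0.61 and -0.25, so changes are relative to the bulk of genes. The split of calls moved with the scale. Rises made up 56.1% of the polysome calls for sorafenib against 45.9% with median-ratio factors and 42.1% with library totals over the tested rows only, and 48.3% of the light calls against 72.5% with library totals. For the fractions, rises made up 51.2% (89.3% with library totals) with vehicle and 63.7% (48.4% with median-ratio factors, 86.4% with library totals) with sorafenib, and 64.0% (34.7% with library totals) of the interaction calls. Hepatocyte markers such as ALB and APOA1 were present in all 12 libraries. Their summed level was higher after sorafenib, 28000 ± 795 against 7430 ± 2630 CPM in the light fraction and 33100 ± 3790 against 11900 ± 3830 in the polysome fraction (SD, n = 3 each). The summed level of 7 markers of leukocytes, endothelium and fibroblasts was low but also higher after sorafenib. It was 32.3 to 70.4 against 10.3 to 14.3 CPM in the light fraction and 31.6 to 37.8 against 17.5 to 21.3 in polysomes. Among these markers CD68 ranged from 8.8 to 35 CPM over the 12 libraries. The highest of the rest, COL1A1, reached 11.7 CPM, and CD3E had counts in only 3 libraries. The part of these shifts in the results was not tested.

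The 3 RNA classes did not move alike, as the plot of each class's share of counts shows. Mitochondrial tRNAs took 0.169%, 0.151% and 0.0868% of counts in the 3 vehicle light libraries and 0.0196%, 0.0624% and 0.0163% in the sorafenib light libraries. In the polysome libraries the tRNA share was 0.0518%, 0.0275% and 0.0231% with vehicle and 0.00213%, 0.00392% and 0.00324% with sorafenib. The groups did not overlap in either fraction, and the vehicle mean was 0.0341% ± 0.0155 against 0.00309% ± 0.000905 in polysomes (SD, n = 3 each). Mitochondrial mRNAs took 6.44%, 7.79% and 5.47% of vehicle light counts and 1.82%, 2.56% and 2.14% after sorafenib. In polysomes their share was 0.883%, 0.422% and 0.554% with vehicle and 0.187%, 0.37% and 0.241% with sorafenib. Mitochondrial rRNAs took 7.1%, 6.32% and 3.32% of vehicle light counts and 8.02%, 6.86% and 5.82% of sorafenib light counts, so these groups overlapped. Their polysome share was 0.149%, 0.323% and 0.234% with vehicle and 0.123%, 0.239% and 0.162% with sorafenib, again overlapping. In bulk libraries fewer mitochondria per cell and less RNA per mitochondrion cannot be told apart.

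**Figure D1:**
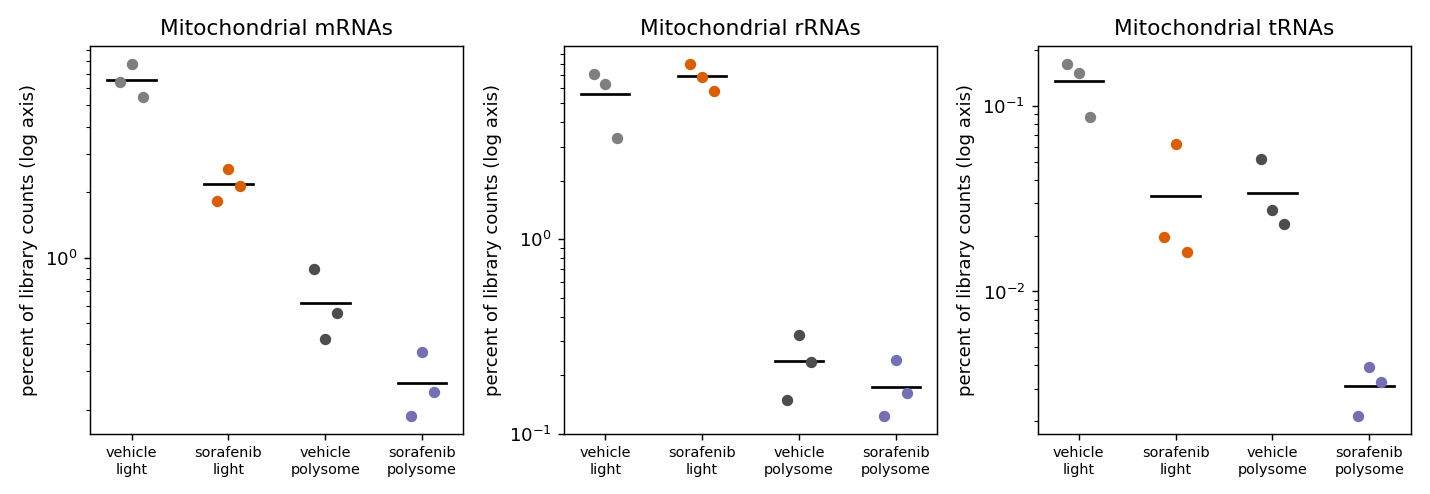
Percent of each library's counts (log axis) taken by the 13 mitochondrial mRNAs, 2 rRNAs and 22 tRNAs; points are the 3 libraries of a group and bars their mean. Sorafenib libraries lie below vehicle libraries for mRNAs and tRNAs in both fractions, and overlap them for rRNAs.

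In the light fraction every mitochondrial mRNA was lower after sorafenib. All 13 of 13 tested fell, with log2 fold changes from -3.86 to -1.52 and a median of -2.71, where 14.8% of all tested rows fell and 13.9% rose (edgeR quasi-likelihood test, adjusted p under 0.05 over all rows). In 13 of 13 the libraries of the 2 groups did not overlap, against 21.9% of all tested rows. MT-ND1, a membrane subunit of complex I, had 4884, 6270 and 2761 TMM-scaled CPM with vehicle (CPM after scaling by the trimmed mean of M values) and 256.2, 174.8 and 515.5 with sorafenib. Each sorafenib library was below each vehicle library, and the log2 fold change of MT-ND1 was -3.86 ± 0.48 (SE over 3 and 3 libraries, edgeR adjusted p = 3.20e-05). MT-ND2 (-3.47 ± 0.45) and MT-ND3 (-3.39 ± 0.45), also of complex I, came next. The catalytic complex IV subunit MT-CO1 went from 30030, 26470 and 12040 to 6999, 5197 and 10710 TMM-scaled CPM. Its groups nearly touched, and it fell by 1.58 ± 0.43 (adjusted p = 0.00982). MT-CO2, the subunit that accepts electrons from cytochrome c, fell by 1.52 and MT-ND5 by 1.55. The other members were MT-ATP8 (-2.97) and MT-ATP6 (-2.71) of the ATP synthase, MT-CO3 (-2.98) of complex IV, MT-CYB (-2.44), the one mitochondrially encoded subunit of complex III, and MT-ND4 (-2.71), MT-ND4L (-2.02) and MT-ND6 (-2.77) of complex I. Without both shallow sorafenib libraries, the 1 sorafenib light library left borrows its spread from the other groups. The mRNA median was then -2.16, and fewer mRNAs and fewer of all tested rows fell. MT-CO1 (-1.08), MT-ATP6 (-1.89), MT-ND5 (-1.02) and MT-CYB (-1.78) then missed the threshold.

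Of the 22 mitochondrial tRNAs, 17 fell in the light fraction, none rose and 5 did not pass the test, at a median of -2.76. Of all tested rows 14.8% fell and 13.9% rose there. MT-TT, the threonine tRNA, had 640.6, 447.4 and 271.5 TMM-scaled CPM with vehicle and 14.73, 42.8 and 26.78 with sorafenib. No sorafenib library came near the vehicle libraries, and MT-TT fell by 4.12 ± 0.60 (SE, adjusted p = 0.000102). The asparagine tRNA MT-TN (-4.11), the glutamine tRNA MT-TQ (-3.90), the alanine tRNA MT-TA (-3.87) and the isoleucine tRNA MT-TI (-3.75) followed. The 5 that did not pass were MT-TF (-1.47), MT-TP (-1.26), MT-TS1 (-0.62), MT-TR (0.14) and MT-TL2 (0.14). MT-TL2, a leucine tRNA, had 48, 32 and 4 raw counts with vehicle and 5, 10 and 2 with sorafenib. The 10 counts of sorafenib light library 2 made 17.83 TMM-scaled CPM. That library stood above both other sorafenib light libraries for 20 of the 22 tRNAs on this scale, and its MT-ND6 level was 215.8 TMM-scaled CPM against 31.81 and 33.53. Without it MT-TF (-2.33, adjusted p = 0.00222) and MT-TP (-2.31, adjusted p = 0.00199) fell too, and 19 of 22 tRNAs fell. Of all tested rows 15.2% fell without that library. Without both shallow libraries, a fit with 1 sorafenib light library left, the tRNA median was -4.01. The aspartate tRNA MT-TD (-2.40) missed the threshold there. MT-TR and MT-TL2 changed sign with that setting, to -2.65 and -2.98. The serine tRNA MT-TS2 (-2.18) missed the threshold without vehicle light library 2 (-1.77) or sorafenib light library 1 (-2.36) or 3 (-1.21), and the methionine tRNA MT-TM (-2.01) without sorafenib light library 3 (-1.22).

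In the polysome fraction all 37 members had a fitted value below 0 after sorafenib, MT-RNR2 by only 0.08 and above 0 (0.09) without the filter on low counts. Of the 37, 28 fell and none rose, where 20.6% of all tested rows fell and 26.3% rose. The libraries of the 2 groups did not overlap for 30 of 37, against 27.1% of all tested rows. Of the 13 mRNAs 10 fell, none rose and 3 did not pass, at a median of -1.70. With library totals taken over the tested rows only, or with median-ratio factors, 12 of 13 fell. Of all tested rows 28.8% and 26.5% fell with these scalings. Cytochrome b, MT-CYB, had 790.4, 222.4 and 242.6 TMM-scaled CPM with vehicle and 37.6, 94.16 and 52.16 with sorafenib. The vehicle libraries spread widely but stayed above all sorafenib libraries, and MT-CYB fell by 2.77 ± 0.53 (SE, 3 libraries each, edgeR adjusted p = 0.000347). MT-ND5, a proton-pumping subunit of complex I, was at 303.9, 277.6 and 265.1 with vehicle and at 48.35, 65.03 and 52.24 with sorafenib. Both groups were tight and far apart, and MT-ND5 fell by 2.35 ± 0.32 (adjusted p = 1.19e-05). MT-ND6, which lies opposite to it, went from 294.2, 284.7 and 210.3 to 31.51, 45.57 and 42.03, a fall of 2.73 ± 0.49. MT-ND2 fell by 2.62, MT-ND1 by 2.06, MT-CO3 by 1.82, MT-ATP8 by 1.70, MT-ND3 by 1.67, MT-ATP6 by 1.54 and MT-ND4L by 1.28. The 3 that did not pass were MT-CO1 (-0.71, adjusted p = 0.173), MT-CO2 (-0.95, adjusted p = 0.0698) and MT-ND4 (-0.93, adjusted p = 0.0770). MT-CO1 was at 3376, 1365 and 2127 with vehicle and 1004, 1859 and 1333 with sorafenib, so its groups overlapped. Sorafenib polysome library 2 was the highest sorafenib library for all 13 mRNAs. Without it MT-CO2 (-1.70) and MT-ND4 (-1.65) fell; without vehicle polysome library 1 MT-CO3 (-1.12) and MT-ATP6 (-1.21) missed the threshold. MT-ATP6 also missed it without sorafenib polysome library 1 (-1.39) or 3 (-1.40).

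Of the 22 tRNAs in polysomes, 17 fell, none rose and 5 did not pass, at a median of -2.56. Of all tested rows 20.6% fell and 26.3% rose there. MT-TT was at 227.8, 46.64 and 79.13 TMM-scaled CPM with vehicle and at 2.92, 11.39 and 3.82 with sorafenib. The lowest vehicle library was above the highest sorafenib library, and MT-TT fell by 4.27 ± 0.58 (SE, adjusted p = 1.03e-05). The proline tRNA MT-TP went from 28.69, 56.44 and 26.3 to 3.75, 3.01 and 3.66, and the glutamate tRNA MT-TE from 47.38, 55.93 and 24.83 to 3.92, 3.26 and 5.3. The log2 fold changes were -3.40 ± 0.56 for MT-TP and -3.35 ± 0.51 for MT-TE, with no overlap between the groups. The tyrosine tRNA MT-TY (-3.21) and the cysteine tRNA MT-TC (-3.07), which are neighbours on 1 strand, had raw counts of 5, 11 and 16 each in the sorafenib polysome libraries. Whether they were counted from shared fragments was not tested. All 8 tRNAs of the MT-ND6 strand fell, at a median of -3.11, and 9 of the 14 on the other strand, at a median of -2.23. In the light fraction, where 14.8% of all tested rows fell, 6 of the 8 and 11 of the 14 fell, at medians of -3.02 and -2.48. The difference between the strands was not tested. MT-TL1 (-1.26), MT-TD (-0.99), MT-TR (-1.91), MT-TS2 (-1.93) and MT-TL2 (-1.61) did not pass. Raw counts of MT-TR, MT-TS2 and MT-TL2 summed to only 5, 7 and 3 over the sorafenib polysome libraries. Depth limits the tRNAs here: 12 of 22 had under 20 raw counts summed over the 3 sorafenib polysome libraries. Among them MT-TH missed the threshold without vehicle polysome library 1 (-2.37) or 2 (-2.11), sorafenib light library 1 (-2.31), or sorafenib polysome library 2 (-2.29) or 3 (-1.89). MT-TM did so without vehicle polysome library 1 (-2.40) or 2 (-2.25) or sorafenib polysome library 2 (-2.27) or 3 (-2.40). MT-TW did so without vehicle polysome library 1 (-1.47) or sorafenib polysome library 1 (-1.97) or 3 (-2.26), and MT-TS1 without vehicle polysome library 2 (-2.06) or sorafenib polysome library 1 (-2.31) or 2 (-2.58).

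**Figure D2:**
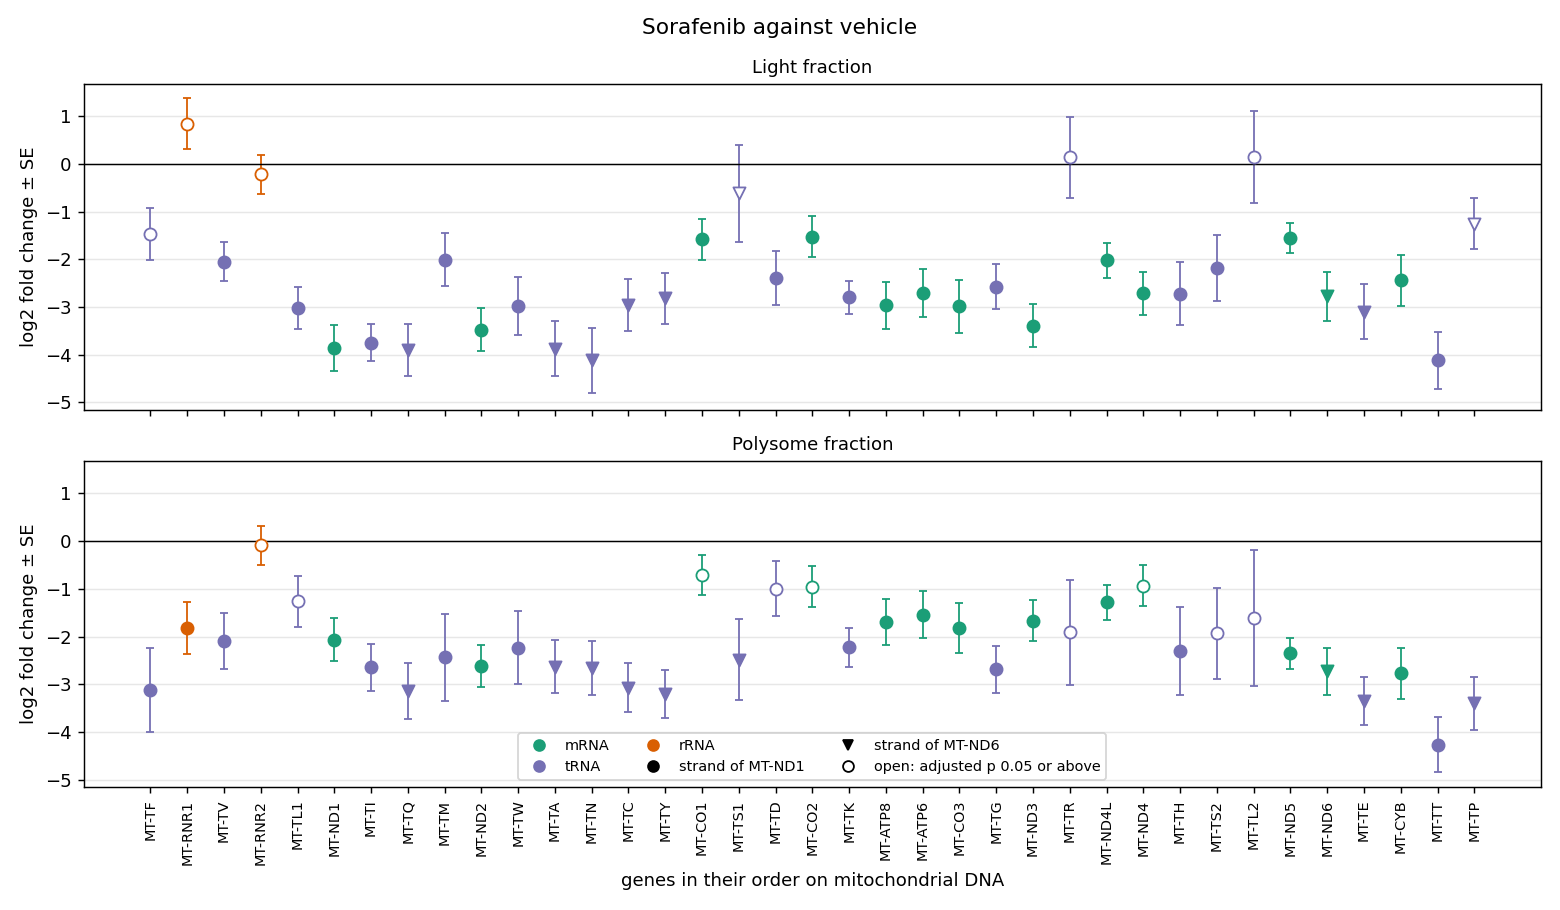
Log2 fold change of sorafenib against vehicle in the light (top) and polysome (bottom) fraction for the 37 genes in their order on mitochondrial DNA; bars are ± 1 SE, colours mark RNA class, triangles the strand of MT-ND6, and open symbols genes that did not pass the test. All symbols lie below 0 in the polysome panel, and in the light panel MT-RNR1, MT-TR and MT-TL2 do not.

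Of the rRNAs, MT-RNR2 did not pass the test in either fraction and MT-RNR1 fell in polysomes. MT-RNR2, the large-subunit rRNA, had 88160, 81170 and 44000 TMM-scaled CPM in vehicle light libraries and 76440, 49180 and 58290 after sorafenib. These ranges overlapped, and its log2 fold change was -0.21 ± 0.41 (SE, adjusted p = 0.723), which is 0.14 with library totals as the scale. In polysomes MT-RNR2 was at 968, 1900 and 1335 with vehicle and 960.5, 1914 and 1089 with sorafenib (-0.08 ± 0.41, adjusted p = 0.884). MT-RNR1, the small-subunit rRNA, was at 15890, 6765 and 2913 in vehicle light libraries and at 20850, 13340 and 11800 after sorafenib. Its light-fraction change of 0.85 ± 0.53 did not pass (adjusted p = 0.239), but passed at 1.59 without vehicle light library 1 (adjusted p = 0.0437). In polysomes MT-RNR1 went from 191.6, 705 and 404.2 to 67.86, 122.2 and 179.6, with no overlap, and fell by 1.81 ± 0.54 (adjusted p = 0.0101). It missed the threshold without vehicle polysome library 2 (-1.38, adjusted p = 0.0606).

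Ratios of counts within a library need no scaling to other genes. The light-fraction libraries held 1.1, 0.811 and 0.606 mitochondrial rRNA counts per mRNA count with vehicle and 4.39, 2.68 and 2.72 with sorafenib, which do not overlap. The polysome libraries held 0.169, 0.766 and 0.422 with vehicle and 0.66, 0.644 and 0.671 with sorafenib, which do. Per 1000 mRNA counts, tRNA counts were 58.6, 65.1 and 41.6 in vehicle polysomes and 11.4, 10.6 and 13.4 in sorafenib polysomes, with no overlap. In the light fraction they were 26.3, 19.3 and 15.9 against 10.7, 24.4 and 7.61, with the highest sorafenib value again in the shallowest library. Sorafenib light library 3, the deepest of that group, had 2.72 rRNA counts per mRNA count and 7.61 tRNA counts per 1000 mRNA counts, each outside the vehicle light range. The ratio of MT-RNR2 to MT-RNR1 counts was 5.55, 12.0 and 15.1 in vehicle light libraries and 3.67, 3.69 and 4.94 after sorafenib. In polysomes this ratio ran the other way, 5.05, 2.69 and 3.3 with vehicle and 14.2, 15.7 and 6.07 with sorafenib. The exact two-sided permutation test gave p = 0.1 in each of the 4 comparisons of this ratio (adjusted 0.1), the smallest that 3 against 3 libraries allows.

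**Figure D3:**
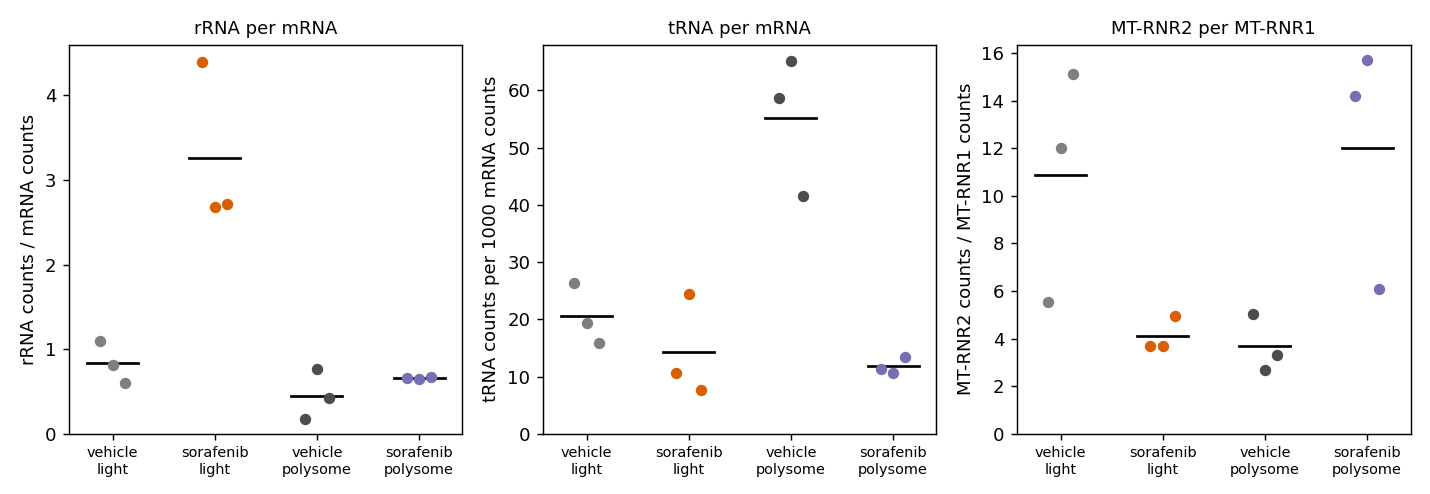
Ratios of raw counts in each library: rRNA counts per mRNA count, tRNA counts per 1000 mRNA counts, and MT-RNR2 counts per MT-RNR1 count; points are libraries and bars group means. Sorafenib light libraries stand above the rest for rRNA per mRNA (2.68 to 4.39), and vehicle polysome libraries for tRNA per mRNA (41.6 to 65.1).

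Few members passed the test for a sorafenib effect that differed between the fractions. Missing the threshold does not show that the effects were equal. Of the 13 mRNAs 11 had interaction values above 0 and 2 below, at a median of 0.87 (0.15 over all tested rows). By the interaction term 3 mRNAs were higher, that is fell less in polysomes: MT-ND1 (1.80 ± 0.61, SE, adjusted p = 0.0391), MT-ND3 (1.72 ± 0.59, adjusted p = 0.0416) and MT-ND4 (1.78 ± 0.60, adjusted p = 0.0357). MT-RNR1 (-2.66 ± 0.76, adjusted p = 0.0150) and MT-TP (-2.15 ± 0.76, adjusted p = 0.0453) were lower. Among all tested rows 15.1% were higher and 8.51% lower, so 3 and 2 of 37 are not above that background. With the culture as a block, since both fractions of 1 number came from 1 culture, 1 mRNA and 1 tRNA were higher and 2 tRNAs lower. MT-ND1 (1.75), MT-RNR1 (-2.95) and MT-TP (-1.78) passed there too, while MT-ND3 (1.50, adjusted p = 0.0551) and MT-ND4 (1.65, adjusted p = 0.0512) missed the threshold, and MT-TL1 (1.66) and MT-TF (-2.41) passed it. Without both shallow sorafenib libraries none of the 5 passed, and MT-TP changed sign to 0.12.

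Within each treatment the members were far scarcer in polysomes than in the light fraction. The main fit did not pair the fractions of a culture. With vehicle 34 of 37 fell in polysomes relative to light, 12 mRNAs, 20 tRNAs and both rRNAs, where 17.5% of all tested rows fell and 18.3% rose. With sorafenib 33 fell, 12 mRNAs, 19 tRNAs and both rRNAs, where 10.2% of rows fell and 17.8% rose. The libraries of the fractions did not overlap for 36 of 37 with vehicle, against 24.8% of rows, and for 33 of 37 with sorafenib, against 13%. Without both shallow libraries, a fit with 1 sorafenib light library left, fewer tRNAs and fewer of all tested rows fell with sorafenib. Among the tRNAs only MT-TN (1.34) and MT-TS1 (4.72) were then above 0. MT-ND1 was at 75.41, 42.24 and 41.97 TMM-scaled CPM in vehicle polysomes, and its log2 difference from the light fraction was -6.44 ± 0.54 (SE, adjusted p = 1.43e-07). The leucine tRNA MT-TL1 (-6.83) and MT-ND4 (-6.15) stood next to it. MT-RNR2 was at -5.67 with vehicle and -5.54 with sorafenib, and MT-RNR1 at -4.30 and -6.96. MT-TP (-1.68 with vehicle) missed the threshold without vehicle light library 1.

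The depletion from polysomes was uneven along the genome. The last 6 genes in the order, MT-ND5, MT-ND6, MT-TE, MT-CYB, MT-TT and MT-TP, had values between -2.59 and -1.14 with vehicle (median -1.75), and the other 31 a median of -4.66. The neighbours MT-TN (-2.80), MT-TC (-2.42), MT-TY (-2.27), MT-CO1 (-3.32) and MT-TS1 (-0.57) had a median of -2.42. The remaining 26 genes lay between -6.83 and -3.17, a range that MT-CO1 falls inside. These groupings were made after the values were seen and were not tested. The 9 genes of the MT-ND6 strand had a median of -2.27 with vehicle and -2.52 with sorafenib. For the other 28 genes the medians were -4.79 and -4.42. MT-ND6, MT-TE and MT-TP of the last 6, and MT-TN, MT-TC, MT-TY and MT-TS1 of the neighbours, lie on the MT-ND6 strand. Whether position or strand goes with the smaller depletion was not tested. MT-ND5 had 1140, 1274 and 584.4 TMM-scaled CPM in vehicle light libraries against the 303.9, 277.6 and 265.1 given for polysomes, a fall of 1.82 ± 0.32 with no overlap. MT-ND6 went from 719.7, 462.1 and 556.8 to 294.2, 284.7 and 210.3, also with no overlap, but its -1.14 missed the threshold (adjusted p = 0.0640). MT-TE (-1.14, adjusted p = 0.0539) did so too. With the culture as a block both passed with vehicle (adjusted p = 0.0102 and 0.0140), and MT-TE passed with sorafenib (-1.30, adjusted p = 0.0463). With sorafenib the last 6 genes lay between -3.83 and -1.09 and the remaining 26 between -6.96 and -2.52. MT-ND6 (-1.09), MT-TE (-1.40), MT-TN (-1.35) and MT-TS1 (-2.44) did not pass there. The strand setting of the counting is unstated, so reads of overlapping or opposite genes such as MT-ND5 and MT-ND6 cannot be told apart, nor can tRNAs from precursors that hold them.

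**Figure D4:**
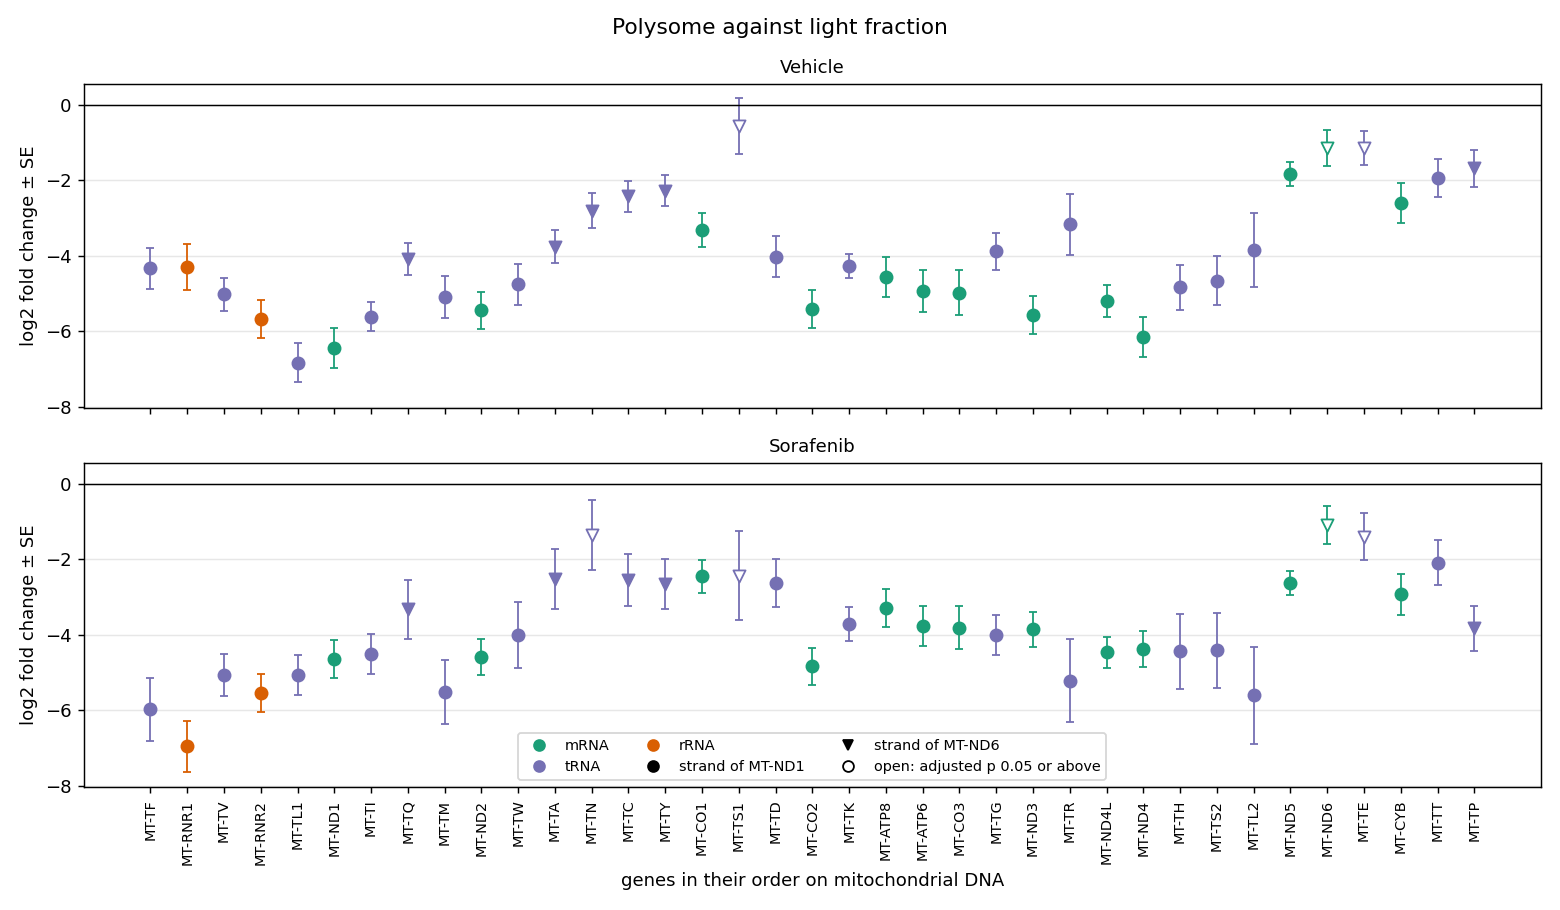
Log2 fold change of the polysome against the light fraction with vehicle (top) and sorafenib (bottom), genes in their order on mitochondrial DNA, bars ± 1 SE, symbols as named in the key. All 37 genes lie below 0, and with vehicle MT-ND5 to MT-TP at the right end lie between -2.59 and -1.14.

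The make-up of the mitochondrial mRNA counts differed between the groups. MT-ND5 made 4.42% to 8.17% of them in vehicle polysomes and 0.755% to 1.21% in vehicle light libraries, and MT-ND6 4.28% to 8.38% against 0.426% to 0.762%. MT-CO1 made 49.1%, 40.2% and 51.6% in vehicle polysomes and 64.4%, 58.8% and 70.5% in sorafenib polysomes, which do not overlap. MT-ND1 made 5.17%, 5.78% and 3.57% of the mRNA counts in vehicle light libraries and 1.16%, 0.749% and 2.0% in sorafenib light libraries. These are shares of raw counts, not corrected for gene length, and are compared only within a gene.

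**Figure D5:**
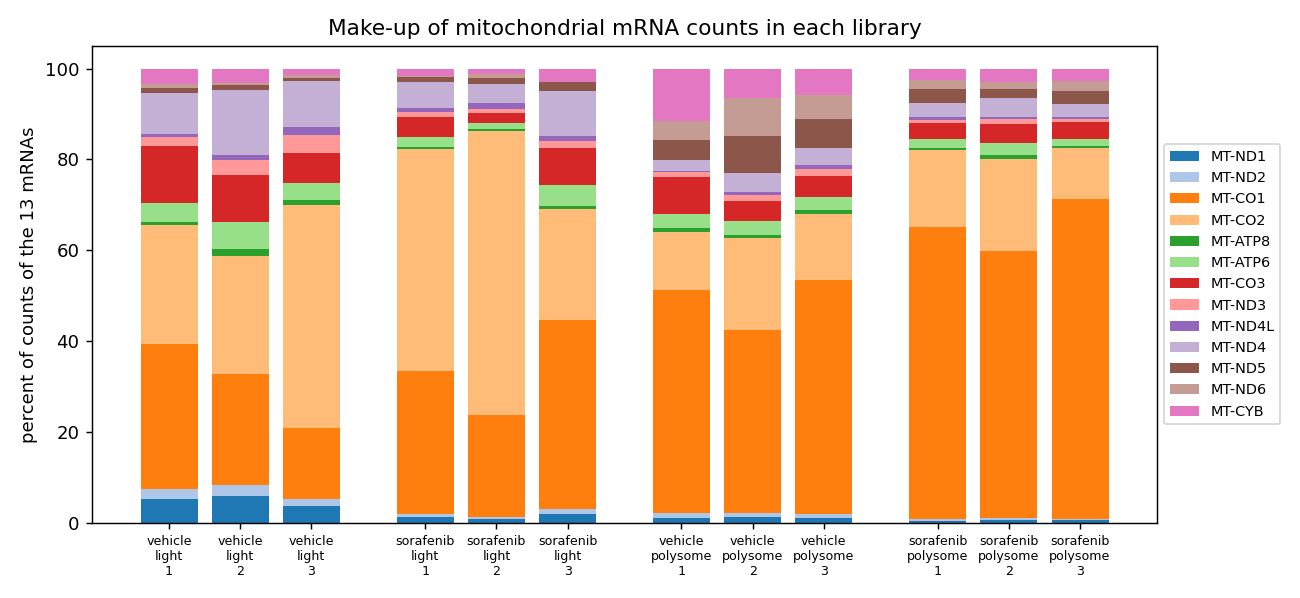
Stacked bars of the percent of mitochondrial mRNA counts from each of the 13 mRNAs, 1 bar per library. MT-CO1 takes 58.8% to 70.5% in sorafenib polysomes against 40.2% to 51.6% in vehicle polysomes, and MT-ND5 and MT-ND6 are widest in vehicle polysomes.

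Nuclear copies of mitochondrial genes can share reads with the members. Of 407 rows named as such copies 276 had counts, equal together to 0.972% of the members' counts. MTATP6P1 alone had 42510 counts, 38.9% of those of MT-ATP6, from which it could have been split in counting. It fell in the light fraction by 2.72 ± 0.41 (SE) and in polysomes by 1.33 ± 0.40, beside values of -2.71 and -1.54 for MT-ATP6. MTCO1P12 held 0.239% of MT-CO1's counts and MTRNR2L12 0.018% of those of MT-RNR2.

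Nuclear genes that serve the members were counted in fixed lists, to be read against all tested rows. Of these rows 26.3% rose and 20.6% fell after sorafenib in polysomes, and 13.9% rose and 14.8% fell in the light fraction. With library totals as the scale 3564 of the 14955 rows rose and 1350 fell in the light fraction, at a median of 0.29. Of 19 mitochondrial tRNA synthetase genes, whose enzymes load the mitochondrial tRNAs, 15 rose and none fell in polysomes at a median of 1.08, where the median of all rows was -0.03. LARS2, for leucine, rose by 2.14 ± 0.24 (SE) and HARS2, for histidine, by 1.94. In the light fraction none of the synthetases rose and 3 fell (median 0.17), AARS2 for alanine by 2.34 and PARS2 for proline by 1.70. There, 5 rose and 2 fell with library totals, and the median was 0.47 without both shallow libraries.

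In the light fraction 13.9% of all tested rows rose and 14.8% fell, and in polysomes 26.3% rose and 20.6% fell. Of 22 RNA processing and stability genes 10 rose and 4 fell in polysomes (median 0.44), the falls no more than the share of all rows. LRPPRC, which stabilises mitochondrial mRNAs, rose by 2.21 and ELAC2, which cuts tRNA 3′ ends, by 1.82, while LRPPRC's partner SLIRP fell by 1.62. SLIRP rose by 1.10 in the light fraction, where 3 of the list rose and 3 fell, near the shares of all rows. With library totals 7 rose and 0 fell. The list's light median was 0.24, or 0.31 without both shallow libraries. Of 15 genes for mitochondrial DNA maintenance and transcription 3 rose and 3 fell in polysomes (median -0.08), no more than the shares of all rows. The mitochondrial RNA polymerase POLRMT rose by 1.73 there and the termination factor homologue MTERF2 fell by 1.85. Among light libraries 2 of these rose and 5 fell (3 and 3 with library totals), at a median of -0.49, or -0.43 without both shallow libraries. Among the main calls were SSBP1, the single-strand binding protein (1.39), TFAM, the packaging and transcription factor (0.70), MTERF2 (-1.93) and the polymerase subunit POLG2 (-1.19). Of 19 translation factors 6 rose and 5 fell in polysomes, near the shares of all rows (median 0.18, -0.06 with totals over the tested rows). GFM1, an elongation factor, rose by 2.60, and C12orf65, a release factor, fell by 2.54. Among light libraries 4 rose and 3 fell (8 and 2 with library totals), at a median of 0.21, or 0.19 without both shallow libraries. Of 25 RNA modification genes 9 rose, among them CDK5RAP1 (2.13), and 3 fell in polysomes, the falls no more than the share of all rows. Their median was 0.11, or -0.07 with median-ratio factors and -0.13 with totals over the tested rows. In the light fraction 0 rose and 6 fell (2 and 6 with library totals), at a median of -0.13, or -0.01 without both shallow libraries. Of 11 mitoribosome assembly genes 3 rose and 1 fell in polysomes, a rise count at the share of all rows, among them the helicase DHX30 (1.72) and MALSU1 (-1.29), a factor of large-subunit assembly. With totals over the tested rows these counts were 1 and 3. There were 1 rise and 2 falls in the light fraction, or 2 and 1 with library totals. The light median was 0.12, or 0.39 without both shallow libraries.

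Nuclear genes also encode subunits that join the encoded proteins in each complex. In the light fraction, where 13.9% of all rows rose and 14.8% fell, 25 of 37 complex I, 1 of 9 complex III, 6 of 11 complex IV and 6 of 17 complex V genes rose and none of them fell, with medians of 0.82, -0.18, 0.78 and 0.63. NDUFA9 rose by 1.62, NDUFB10 by 1.60, COX5B by 1.55 and ATP5PD by 1.72. With library totals as the scale 31, 3, 8 and 12 rose and none fell, and the complex III median was 0.17. On that scale 3564 of all 14955 tested rows rose and 1350 fell, at a median of 0.29, above the complex III value. Without both shallow libraries, a fit with 1 sorafenib light library left, the 4 medians were 1.05, 0.21, 1.02 and 0.77. The complex III count of 1 of 9 is no more than the share of all rows. In polysomes, where 20.6% of all rows fell and 26.3% rose, 23 complex I, 5 complex III, 10 complex IV and 11 complex V genes fell, and 6, 2, 0 and 2 rose, with medians of -0.88, -0.97, -1.05 and -1.0. Each of these 4 medians stayed below 0 under all 5 other scalings. NDUFB1 fell by 1.89, UQCR11 by 1.55 and COX6C by 1.52, whereas the ATP synthase subunits ATP5F1A (2.34) and ATP5F1B (1.93) rose.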

How the data were processed

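The authors deposited raw counts per gene symbol for 12 libraries. The build named for these counts is GRCh38.p12; the source is the submitters' processing notes. Aligner, counter, annotation, library kit and strand setting: not given in the sources used here. Where RNA was selected before sequencing, for length or otherwise, short tRNAs could be under-counted. Each library is 1 column, and groups and culture numbers come from the labels.

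Counts were tested with edgeR 4.0.16 (limma 3.58.1, R 4.3.3): filterByExpr on the 4 groups, TMM, 1 quasi-likelihood fit over all 12 libraries, and Benjamini-Hochberg adjustment over 14955 rows at 0.05. The other 42398 rows made up to 4.54% of the counts in any library. SE was taken as |log2 fold change| divided by the root of the F statistic. The common biological coefficient of variation was 0.247 and TMM factors were 0.682 to 1.35. The fit was also run on simulated counts in which only a set of genes in sorafenib polysomes differed from the other groups. These data differ more widely between groups, so that run does not test the results given here. Figures used matplotlib.

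Library sizes were totals over all rows. The written design did not fix this; totals over the tested rows were also tried, and the choice was made after both sets of factors and their calls had been seen. With tested-row totals the shallowest library becomes the TMM reference, and 12 rather than 10 mitochondrial mRNAs fell in polysomes. Of all tested rows 28.8% rather than 20.6% then fell there. DESeq2 1.42.0 was an alternative.

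The members and lists were chosen with earlier results of these data known. Members are all MT- rows; of each list the 2 genes with the smallest p in each called direction may be named, and of nuclear copies the 3 with most counts. Strand and gene order were written from textbook knowledge. Same-numbered fractions of 1 treatment come from 1 culture per the titles; their deviations from group means correlated at -0.071 to 0.332. The labels do not state how cultures were separated in time, so p-values for sorafenib against vehicle measure the spread between these cultures. The main fit had no term for culture, so fractions of 1 culture entered the fraction and interaction tests as independent libraries. The permutation test of the rRNA ratio between fractions did not pair them either.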

Additional observations from a re-analysis of the deposited data

Results flagged for a closer look

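For 5 members the sorafenib effect differed between the fractions by the interaction term of the edgeR fit, a test of the difference itself. Among all tested rows 15.1% were higher and 8.51% lower, so 3 higher and 2 lower of 37 are not above that background. MT-RNR1 had -2.66, MT-TP -2.15, MT-ND1 1.80, MT-ND3 1.72 and MT-ND4 1.78 (log2, polysome minus light). The MT-RNR1 value combines a fall in polysomes of 1.81 with a light-fraction value of 0.85 that did not pass on its own. MT-RNR1 missed the threshold without vehicle polysome library 2 (-2.20, adjusted p = 0.0542) and without sorafenib light library 1 (-2.35, adjusted p = 0.0534). Without sorafenib polysome library 2 the 3 complex I mRNAs were at 1.17 (MT-ND1), 0.78 (MT-ND3) and 1.10 (MT-ND4), with adjusted p of 0.178 or above. MT-TP was at -1.09 without sorafenib light library 2, in which it stood at 123.1 TMM-scaled CPM against 41.23 and 10.37 in the other sorafenib light libraries.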

How the results depend on the processing

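No member of the mRNA or tRNA class was called higher in any treatment or fraction comparison under any of the 22 alternatives run. Falls after sorafenib numbered 8 to 13 mRNAs and 14 to 19 tRNAs in polysomes, and 9 to 13 mRNAs and 15 to 19 tRNAs in the light fraction. The share of all tested rows that fell moved too, for instance in polysomes from 20.6% to 28.8% with totals over the tested rows. In the light fraction it moved from 14.8% to 9.03% with library totals. Falls from light to polysomes numbered 12 to 13 mRNAs and 18 to 21 tRNAs with vehicle. With sorafenib they numbered 12 to 13 mRNAs and, leaving out 1 library at a time, 17 to 22 tRNAs. Fewer tRNAs, and fewer of all tested rows, fell without both shallow libraries, a fit with 1 sorafenib light library left. The interaction counts, which are small, moved from 3 mRNAs higher, 0 lower, 0 tRNAs higher and 1 lower: library totals gave 0 mRNAs higher and 1 lower, no low-count filter 5 mRNAs and 2 tRNAs higher, DESeq2 0 tRNAs lower, the fit without both shallow libraries 1 mRNA higher, 1 lower and 0 tRNAs lower, and the replicate block by culture 1 mRNA higher, 1 tRNA higher and 2 tRNAs lower. Leaving out 1 library at a time gave 0 to 6 mRNAs and 0 to 2 tRNAs higher and 0 to 1 tRNAs lower. Among members that the interaction did not call, 77 values changed sign over all alternatives. The replicate number as a block across treatments, where the numbers pair nothing (correlations from -0.196 to 0.18), gave 11 mRNAs and 19 tRNAs lower in polysomes and 13 and 19 in the light fraction; the culture block changed no other count by over 1.5 times. Signs turned for some members near 0 or with few counts. In the light fraction MT-RNR2 was 0.14 with library totals, MT-TR and MT-TL2 -0.20 each without the filter, and -2.65 and -2.98 without both shallow libraries; leaving out single libraries gave MT-TR -1.61 to -0.01, MT-TL2 -1.53 to -0.41 and MT-TS1 0.52. In polysomes MT-RNR2 was 0.09 without the filter and 0.01 to 0.09 with single libraries left out. Between fractions MT-TS1 was 0.30 with library totals (vehicle), and without both shallow libraries (sorafenib) MT-TN was 1.34, MT-TS1 4.72 and MT-ND6 0.27; MT-ND6 ranged from -1.5 to 0.29 with 1 library left out. The interaction of MT-TP was 0.12 without both shallow libraries. The cause of these moves was not tested. Depth limits the tRNAs: 7 of 22 in sorafenib light and 12 of 22 in sorafenib polysomes had under 20 counts over 3 libraries.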
